A study of Saccharomyces cerevisiae with 27 samples.

Results

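The nuclear pore complex genes of budding yeast (Saccharomyces cerevisiae) were followed in mother cells of rising replicative age, counted in daughters already budded off. The set was a list of 30 genes for the structural pore proteins, the nucleoporins, taken by name. All 30 were found by their common name on the arrays, among 5865 genes that could be tested. The cells are labelled as W303 wild type. The wording can be read as the a mating type or as the article "a", and the mating-type genes are described below. Each of the 27 arrays carried amplified RNA of sorted mothers in one dye. The other dye carried RNA of young cells handled in the same way. There were 7 arrays of cells at 1 generation (young against young), 6 at 8 generations, 7 at 12 generations and 7 at 18-20 generations, and 11 of the 27 had the dyes inverted. The labels name no mutation, transgene or drug in any group. Aged mothers were isolated with magnetic beads from cultures held in log phase. Which arrays stem from separate cultures is not stated, and the p-values below therefore cover only the spread among these arrays, some of which may be technical.

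The nuclear pore complex is the only passage between nucleus and cytoplasm. Membrane proteins anchor it where the inner and outer nuclear membranes meet, an inner ring and outer rings built of Y-shaped complexes form its frame, and nucleoporins rich in phenylalanine-glycine (FG) repeats fill its channel and bind the importins and exportins that carry cargo. Filaments on the cytoplasmic face receive messenger RNA, and a basket faces the nucleus. In yeast, the pore and its assembly are among the structures studied in ageing mother cells.

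Every value below is a log2 ratio of aged over young cells unless a fold is named. The ratio is negative where the transcript was lower in aged cells. It is relative to the other genes on the same array, whose median was set near 0, and it does not give molecules per cell. In RNA of a sorted population of cells, fewer cells of a kind and less RNA per cell cannot be told apart. A gene is said to have risen or fallen only where the Benjamini-Hochberg adjusted p of limma, taken over all 5865 genes, was under 0.05.

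Several arrays stood apart from their labels or resembled each other. At 18-20 generations, arrays 1 to 4 correlated with each other at 0.93 to 0.96 over all genes, and with arrays 5 to 7 at no more than 0.73, and whether they are separate samples is not stated. Arrays 5 and 6 of that age correlated at 0.87, and at 12 generations arrays 4 and 5 at 0.92 and arrays 6 and 7 at 0.86. Averaging such alike arrays (above 0.85) left 5 units at 12 generations and 3 at 18-20 generations. At 8 generations, array 1 ran against arrays 2, 3 and 4 of the same age at correlations of -0.64, -0.58 and -0.66. Its direction is therefore not settled. The deposited value table pairs arrays 1 and 3 the other way round, so which scanner file belongs to which label is uncertain. Its columns for arrays 1 and 3 correlated with the other array's file at 0.97 and 0.94, with the sign used here. At 1 generation, arrays 1 and 2 correlated at -0.67. Array 2, the only array of that age with the dyes inverted, correlated with arrays 3 to 6 at -0.38 to -0.21 and with array 7 at 0.09. Whether the dyes account for this was not tested. Between 174 and 1157 of 6580 spots per array were marked as poor and left out, and the share of spots above background lay between 61.28% and 95.97% in red and between 82.84% and 97.01% in green. Of the 30 pore genes, 29 were measured on all 27 arrays and 20 were above background in both colours on all of them. The exception was GLE2, measured on 20 arrays and above background in both colours on 15, the fewest of the 30 genes. Daughter-specific and mating-type genes moved with age as well. Of 9 daughter-specific and cell separation genes, 8 fell and 1 rose at 18-20 generations, and 7 fell and 1 rose at 12 generations. The median of that list ran over the arrays from -1.91 to -0.75 at 18-20 generations and from -0.73 to -0.47 at 12 generations. All 4 alpha-cell genes fell at both ages, and 4 of 7 a-cell genes rose at each of them. Where the labels can be read as the a mating type, the alpha-cell genes were above background in both colours on 23 to 27 of the 27 arrays. The a-cell genes were so on 10 to 20. The mating type of the cells is therefore not settled here. The part of these marker genes in the pore gene values was not tested.

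Pore transcripts as a group lay below the median gene in the aged cells. At 18-20 generations 14 of the 30 fell and 3 rose, where 31.2% of all genes tested fell and 32.9% rose. At 12 generations 13 of the 30 fell and none rose, where 21.5% of all genes fell and 23.3% rose. No pore gene passed the threshold at 8 generations or at 1 generation, and no gene of the array did (0% at both ages by limma). At an unadjusted p under 0.05, 1 pore gene was found at 8 generations (12.8% of all genes) and 0 at 1 generation (0.222%). When the arrays were scaled to an equal spread, 9 pore genes fell and 0 rose at 18-20 generations, where 20.2% of all genes fell and 20.8% rose. Set against the 1-generation arrays, 10 fell and 1 rose at 18-20 generations, where 25.3% of all genes fell and 26.4% rose, and 7 fell at 12, where 13.1% of all genes fell.

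The members' median was -0.34 at 18-20 generations, against 0.010 for all genes, and -0.18 at 12 generations, against 0.015 for all genes. At 18-20 generations 6 of the 30 had a value above 0, called or not, where 50.6% of all genes did. Below 0 on every array were 11 pore genes at 18-20 generations (24.2% of all genes) and 8 at 12 (13.8%). On single arrays the median of the pore genes averaged -0.04 ± 0.07 at 1 generation (SD, n = 7), -0.09 ± 0.12 at 8 generations (n = 6), -0.28 ± 0.18 at 12 generations (n = 7) and -0.38 ± 0.08 at 18-20 generations (n = 7). At 18-20 generations every array lay below 0, between -0.46 and -0.25. At 12 generations the arrays spread from -0.46 to 0.03. The ranges of 12 and 18-20 generations overlapped. Sizes were moderate. The median absolute log2 value of pore genes was 0.37 at 18-20 generations, against 0.54 over all genes, and 0.23 at 12 generations, against 0.33 over all genes. More than 2-fold lower at 18-20 generations were 3 pore genes, NUP145, NUP192 and POM152 (13.9% of all genes were), and at 12 generations 2, POM152 and NUP49 (4.69%).

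**Figure D1:**
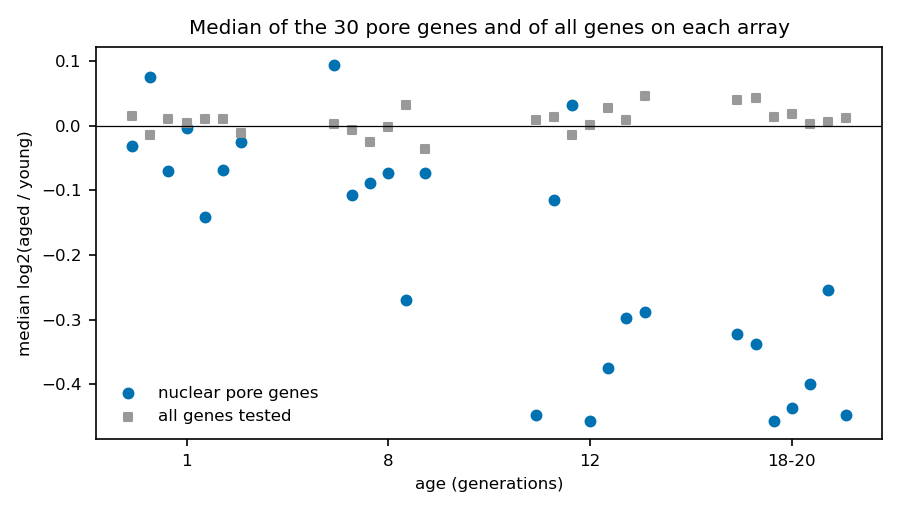
Median log2 ratio of aged over young cells on each array, for the 30 nuclear pore genes (circles) and for all 5865 genes tested (squares), by age in generations. The pore gene medians lay between -0.46 and -0.25 on the 7 arrays at 18-20 generations, while the medians of all genes stayed near 0 at every age.

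Of the 14 pore genes that fell at 18-20 generations, 9 had also fallen at 12 generations (64.3% of the 14, and 69.2% of the 13 that fell at 12), where 18.6% of all genes fell at both ages. Those 9 were POM152, NDC1, NUP170, NUP188, NUP192, NUP120, NUP145, SEH1 and NUP49. The other 5, NIC96, NUP57, NUP100, NUP82 and NUP2, fell at 18-20 generations without passing the test at 12 (12.5% of all genes). NUP157, NUP116, NUP42 and GLE2 fell at 12 generations without passing it at 18-20 (2.68%), and POM34, ASM4 and NUP159 rose at 18-20 generations without passing it at 12 (12.9%). No pore gene was called in opposite directions at the 2 ages (0.392%). At 9 of 30 genes neither age passed the test, as for 29.8% of all genes.

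**Figure D2:**
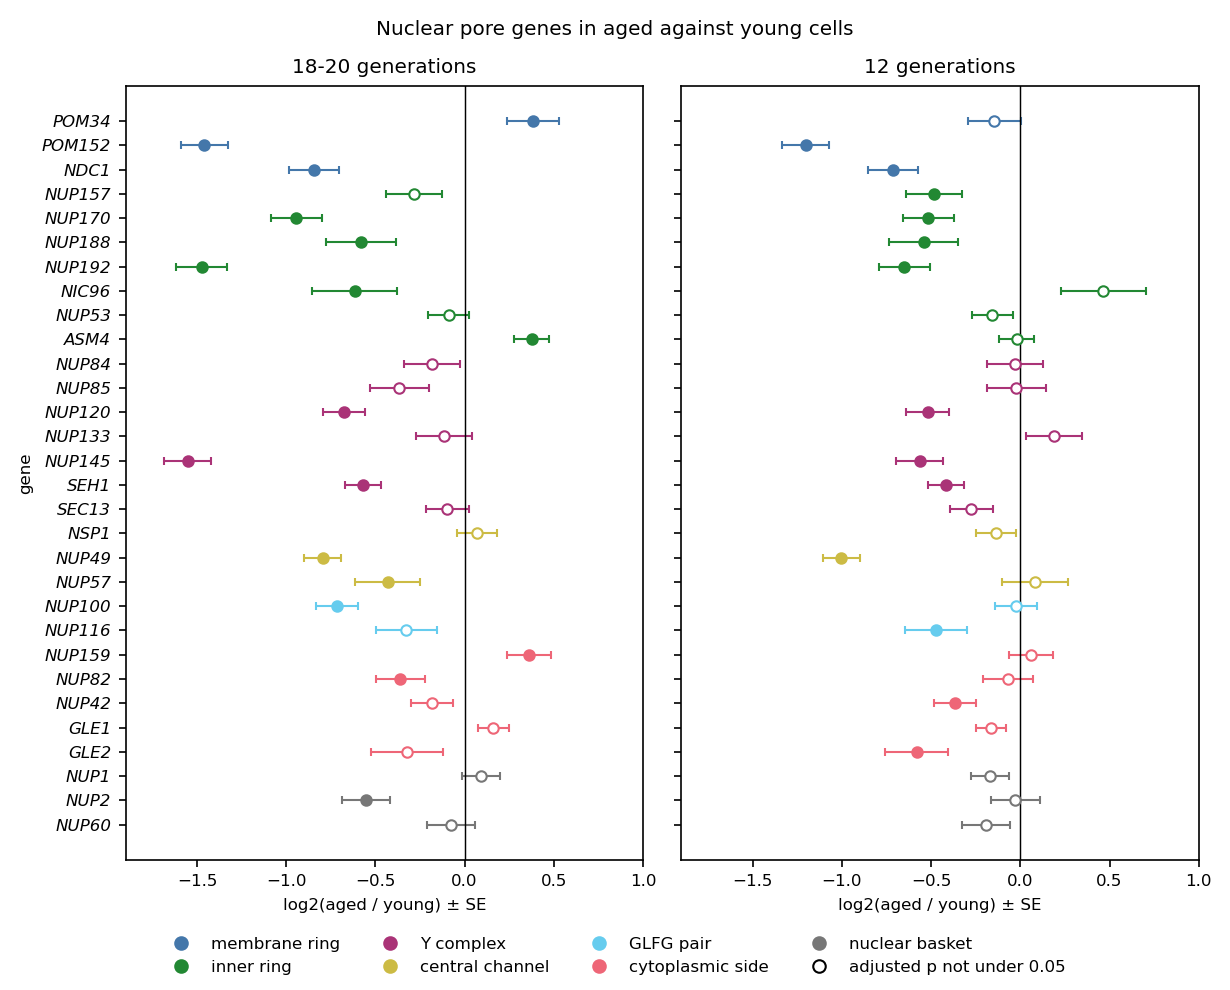
Fitted log2 ratio of aged over young cells (± SE) of the 30 nuclear pore genes at 18-20 generations (left) and 12 generations (right), coloured by place in the pore, with filled points for adjusted p under 0.05. At 18-20 generations 14 genes fell, down to -1.55 for NUP145, and POM34, ASM4 and NUP159 rose by 0.36 to 0.38.

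The membrane ring split. POM152, a glycoprotein that forms the ring in the space between the nuclear membranes, lay between -1.72 and -1.10 on the 7 arrays at 18-20 generations, with a median of -1.41, and between -1.61 and -0.44 at 12 generations, with a median of -1.18. All 14 of these arrays were below 0, while the values at 1 generation ran from -0.35 to 0.26. The fitted change was -1.46 ± 0.13 (SE, adjusted p = 2.47e-10, 2.75-fold lower) at 18-20 generations and -1.20 ± 0.13 (adjusted p = 4.83e-08) at 12 generations.

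NDC1, a membrane protein that also inserts the spindle pole body into the envelope, ranged from -1.51 to -0.21 at 18-20 generations, with a median of -0.88, and from -1.05 to -0.07 at 12 generations, with a median of -0.84. Every array of both ages was below 0, but the highest arrays came close to it. The fit gave -0.84 ± 0.14 (adjusted p = 7.74e-06) and -0.71 ± 0.14 (adjusted p = 0.00016). POM34, the third membrane anchor, which binds POM152, went the other way at the later age, at 0.38 ± 0.15 (adjusted p = 0.0245). Its call rested on the arrays with the highest values, 0.86 and 1.06 on arrays 6 and 7. Without array 6 it was 0.25 (adjusted p = 0.154), and without array 7 0.31 (adjusted p = 0.0883). Over all alternatives the call was lost in 5 of 46. At 12 generations POM34 was -0.15 ± 0.15 (adjusted p = 0.447).

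In the inner ring, 4 of 7 genes fell and 1 rose at 18-20 generations (31.2% and 32.9% of all genes). At 12 generations 4 fell (21.5%). NUP192, the largest scaffold of the ring, lay between -1.87 and -0.997 at 18-20 generations, with a median of -1.70, and between -1.45 and -0.10 at 12, with a median of -0.61. It was below 0 on all 14 arrays, and the only 12-generation array inside the later range was array 1. The fitted change was -1.47 ± 0.14 (adjusted p = 8.99e-10) at 18-20 generations and -0.65 ± 0.14 (adjusted p = 0.000505) at 12. The later decline was larger by -0.82 ± 0.20 (adjusted p = 0.00534).

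NUP188, a relative of NUP192 in the same ring, was -0.58 ± 0.20 (adjusted p = 0.011) at 18-20 generations and -0.54 ± 0.20 (adjusted p = 0.0246) at 12. At 12 generations its call was lost when array 4, 5, 6 or 7 was left out, with adjusted p up to 0.114. Over all alternatives the 12-generation call was lost in 9 of 44. The call at 18-20 generations was lost, and the value was -0.14 (adjusted p = 0.721), without arrays 1 to 4, which resemble each other. It was also lost with alike arrays averaged (adjusted p = 0.202), with the arrays of small spots as a block (0.245), with arrays scaled to an equal spread (0.227) and against the 1-generation arrays (0.102). On each of the 7 arrays at 18-20 generations NUP188 was higher than NUP192, by 0.91 ± 0.28 (SD, n = 7), and the exact sign-flip permutation test gave p = 0.0156, the smallest that 7 arrays allow. Over the 8 comparisons of paralogous pairs the adjusted p was 0.125, so the difference did not pass the correction. At 12 generations it was 0.12 ± 0.61 (adjusted exact p = 0.714).

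NUP170 and NUP157 are paralogues that coat the membrane under the inner ring. NUP170 ranged from -1.35 to -0.56 at 18-20 generations, with a median of -1.07, and from -1.06 to 0.15 at 12, with a median of -0.69. Its arrays were all below 0 at the later age. The fit gave -0.94 ± 0.14 (adjusted p = 1.75e-06) and -0.52 ± 0.14 (adjusted p = 0.00419). The call at 12 generations was lost with alike arrays averaged (adjusted p = 0.0846) and against the 1-generation arrays (0.0651). It was also lost with the arrays of small spots as a block (0.103). That block rests on array 7 of 18-20 generations alone. No 12-generation array had small spots, so the block cannot decide the call at 12. NUP157 was -0.28 ± 0.16 (adjusted p = 0.116) at 18-20 generations and -0.49 ± 0.16 (adjusted p = 0.0125) at 12. The call of NUP157 at 12 was lost without array 4 (adjusted p = 0.0657) or array 6 (0.058), and in 5 of 44 alternatives in all. NUP157 minus NUP170 was 0.66 ± 0.64 at 18-20 generations (SD, n = 7, adjusted exact permutation p = 0.208), a gap that did not pass the test.

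NIC96, which links the inner ring to the central FG proteins, was -0.62 ± 0.24 (adjusted p = 0.0262) at 18-20 generations and 0.47 ± 0.24 (adjusted p = 0.117) at 12. The 12-generation value held an array far from the rest: array 6 stood at 2.74, and the others between -0.59 and 0.81. The difference between the ages was -1.08 ± 0.34 (adjusted p = 0.024). Without that array it was -0.70 (adjusted p = 0.0484), and it missed the threshold without array 2 of 12 generations (adjusted p = 0.0515) or array 4 of 18-20 generations (0.0503). The decline at 18-20 generations itself missed the threshold without array 1, 2 or 4, with adjusted p up to 0.0754. It also missed it without arrays 1 to 4 together (-0.35, adjusted p = 0.462) and against the 1-generation arrays (0.351). The same held with arrays scaled to an equal spread (0.249), alike arrays averaged (0.152) and the arrays of small spots as a block (0.106).

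ASM4 (Nup59) and NUP53 are paralogues that bind both the pore membrane and the inner ring. ASM4 rose to 0.38 ± 0.10 (adjusted p = 0.00138) at 18-20 generations and was -0.02 ± 0.10 (adjusted p = 0.887) at 12. Its arrays at 18-20 generations ran from -0.26 to 0.77 with a median of 0.37, and 6 of 7 were above 0. The rise at 18-20 generations was lost without arrays 1 to 4 (0.19, adjusted p = 0.316), with arrays scaled to an equal spread (0.19, adjusted p = 0.155) and against the 1-generation arrays (0.31, adjusted p = 0.0644). The difference between the ages was 0.40 ± 0.14 (adjusted p = 0.0419), and it missed the threshold with most single arrays left out (15 of 27, adjusted p up to 0.0975). NUP53 was -0.09 at 18-20 generations (95% interval -0.33 to 0.15) and -0.16 at 12 (-0.39 to 0.08). The difference between the paralogues at 18-20 generations, NUP53 minus ASM4, was -0.43 ± 0.58 (SD, n = 7, adjusted exact permutation p = 0.25).

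**Figure D3:**
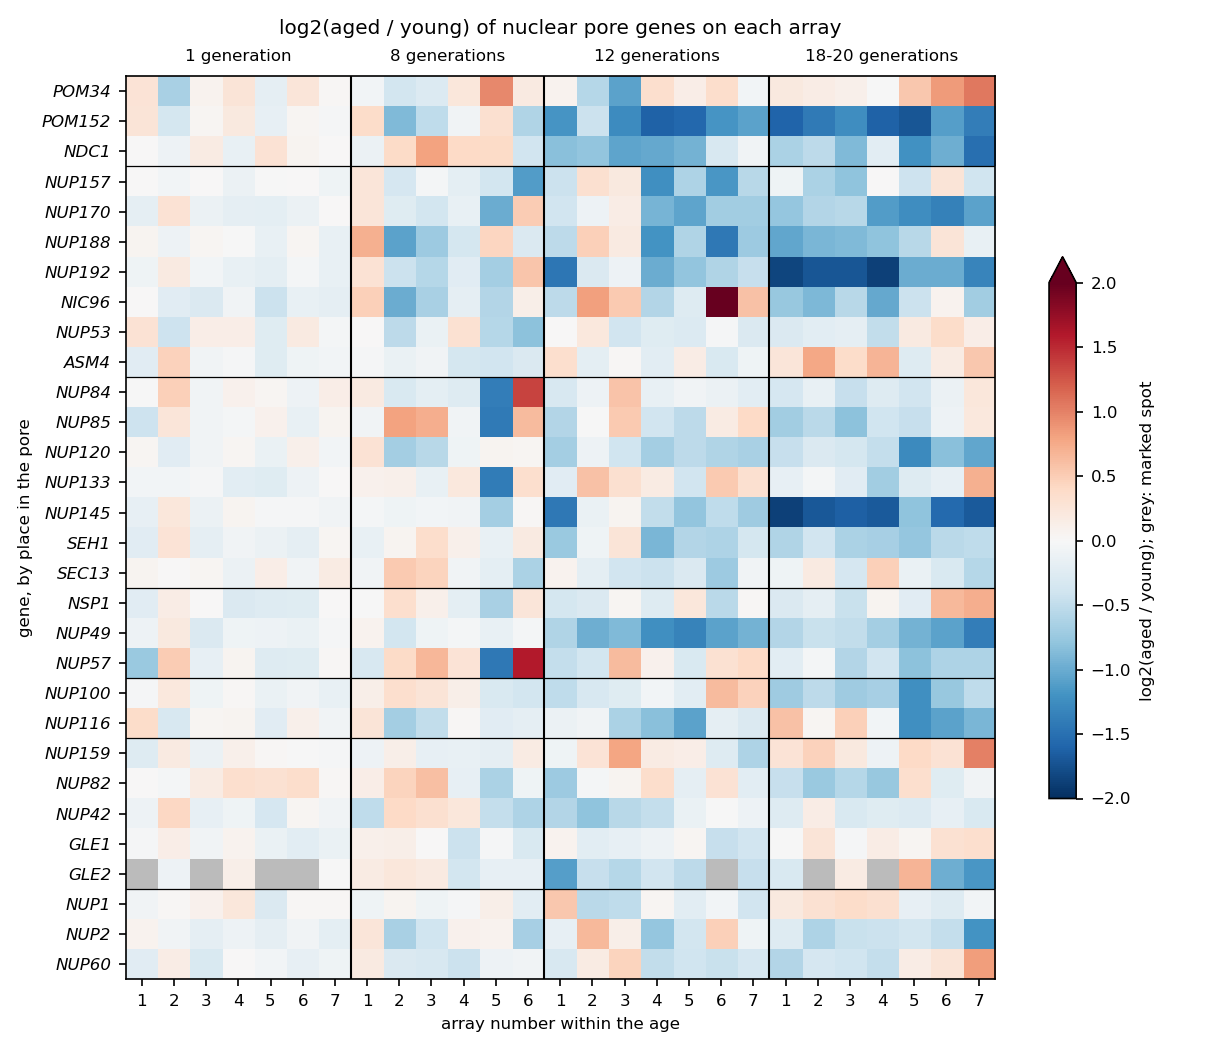
Log2 ratio of aged over young cells of each nuclear pore gene (rows, by place in the pore) on each of the 27 arrays (columns, by age), from blue (lower in aged cells) to red (higher), with grey for marked spots and values above 2 shown in the darkest red. NUP145, NUP192, POM152 and NUP49 are blue on every array at 18-20 generations. The 8-generation arrays 5 and 6 carry values of opposite sign for NUP84 and NUP57. The dyes were inverted on array 6 and not on array 5.

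Of the 7 Y complex genes, 3 fell at both ages (18.6% of all genes). NUP145 had the lowest fitted value of all pore genes. Its product cuts itself into an FG nucleoporin and a structural arm of the Y complex. At 18-20 generations NUP145 lay between -1.88 and -0.81, with a median of -1.68, and at 12 between -1.43 and 0.05, with a median of -0.51. All arrays of the later age except array 5 were at -1.56 or lower. The fitted change was -1.55 ± 0.13 (adjusted p = 6.94e-11, 2.93-fold lower) at 18-20 generations and -0.56 ± 0.13 (adjusted p = 0.000879) at 12. The difference between the ages was -0.99 ± 0.18 (adjusted p = 0.000516).

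NUP120, at the tip of one short arm of the Y, was -0.68 ± 0.12 (adjusted p = 1.53e-05) at 18-20 generations and -0.52 ± 0.12 (adjusted p = 0.000777) at 12, and below 0 on all 14 arrays. SEH1, which also belongs to the SEA complex of the vacuole membrane, was -0.57 ± 0.10 (adjusted p = 1.63e-05) at 18-20 generations and -0.42 ± 0.10 (adjusted p = 0.00134) at 12. The other 4 did not pass. NUP85, the partner of SEH1, was -0.36 ± 0.17 at 18-20 generations (adjusted p = 0.0553) and passed when array 7 was left out (-0.50, adjusted p = 0.0102). NUP84 and NUP133, which make the stem of the Y, were -0.18 and -0.12 at 18-20 generations, with 95% intervals of -0.50 to 0.14 and -0.44 to 0.21. SEC13, shared with the COPII coat of vesicles, was -0.10 (-0.34 to 0.15).

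The 3 central channel FG proteins form a common trimer. Of their genes, 2 fell at 18-20 generations (31.2% of all genes) and 1 at 12 (21.5%). NUP49 lay between -1.39 and -0.44 at 18-20 generations, with a median of -0.68, and between -1.34 and -0.60 at 12, with a median of -0.98. All 14 arrays were below 0, and the range at 12 lay within that at 18-20 generations. The fit gave -0.80 ± 0.10 (adjusted p = 1.76e-07) at 18-20 generations and -1.004 ± 0.10 (adjusted p = 2.01e-08) at 12. NUP57 was -0.43 ± 0.18 (adjusted p = 0.0427) at 18-20 generations. This call was lost in 6 of the 27 fits that left out an array, with adjusted p up to 0.142. Over all alternatives it was lost in 13 of 46, with adjusted p up to 0.385. NSP1, the hub of the trimer and of a cytoplasmic complex, was 0.07 at 18-20 generations (95% interval -0.16 to 0.30).

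NUP100 and NUP116 are paralogues whose GLFG repeats fill much of the channel. NUP100 lay between -1.22 and -0.50 at 18-20 generations, with a median of -0.71, and between -0.50 and 0.63 at 12, with a median of -0.22. The arrays of the later age lay just below those of the earlier one, with no overlap. The fit gave -0.71 ± 0.12 (adjusted p = 5.46e-06) at 18-20 generations and -0.02 ± 0.12 (adjusted p = 0.884) at 12, and the difference was -0.69 ± 0.16 (adjusted p = 0.00446). NUP116 was -0.33 ± 0.17 (adjusted p = 0.1) at 18-20 generations and -0.47 ± 0.17 (adjusted p = 0.0268) at 12. The call of NUP116 at 12 was lost without array 3, 4 or 5 (adjusted p up to 0.109), and in 6 of 44 alternatives in all. NUP100 minus NUP116 was -0.42 ± 0.68 at 18-20 generations (adjusted exact permutation p = 0.3) and 0.42 ± 0.53 at 12 (0.208; SD, n = 7 at both ages).

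The mean of NUP116 at 18-20 generations covered 2 sets of arrays. It stood at 0.59, 0.04, 0.47 and -0.05 on arrays 1 to 4, and at -1.23, -1.06 and -0.92 on arrays 5 to 7. NUP82 split the other way, at -0.46, -0.74, -0.57 and -0.76 on arrays 1 to 4 and 0.33, -0.24 and -0.07 on arrays 5 to 7. NUP60 was at -0.59, -0.34, -0.39 and -0.48 on arrays 1 to 4 and at 0.14, 0.25 and 0.84 on arrays 5 to 7. These genes were singled out after their values were seen. In all, 12 of 30 pore genes had no overlap between those sets (6 lower and 6 higher on arrays 1 to 4), as did 39.6% of all genes (19.4% lower and 20.2% higher). With arrays 1 to 4 left out, NUP116 was -1.12 (adjusted p = 2.66e-05), NUP82 0.020 (adjusted p = 0.943) and NUP60 0.43 (adjusted p = 0.0429). With arrays 5 to 7 left out, NUP60 was -0.45 (adjusted p = 0.00486). NUP192 was below 0 on both sets, at -1.84, -1.70, -1.71 and -1.87 on arrays 1 to 4 and at -0.999, -0.997 and -1.32 on arrays 5 to 7, and its difference from 12 generations was not called without arrays 1 to 4 (-0.40, adjusted p = 0.256).

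**Figure D4:**
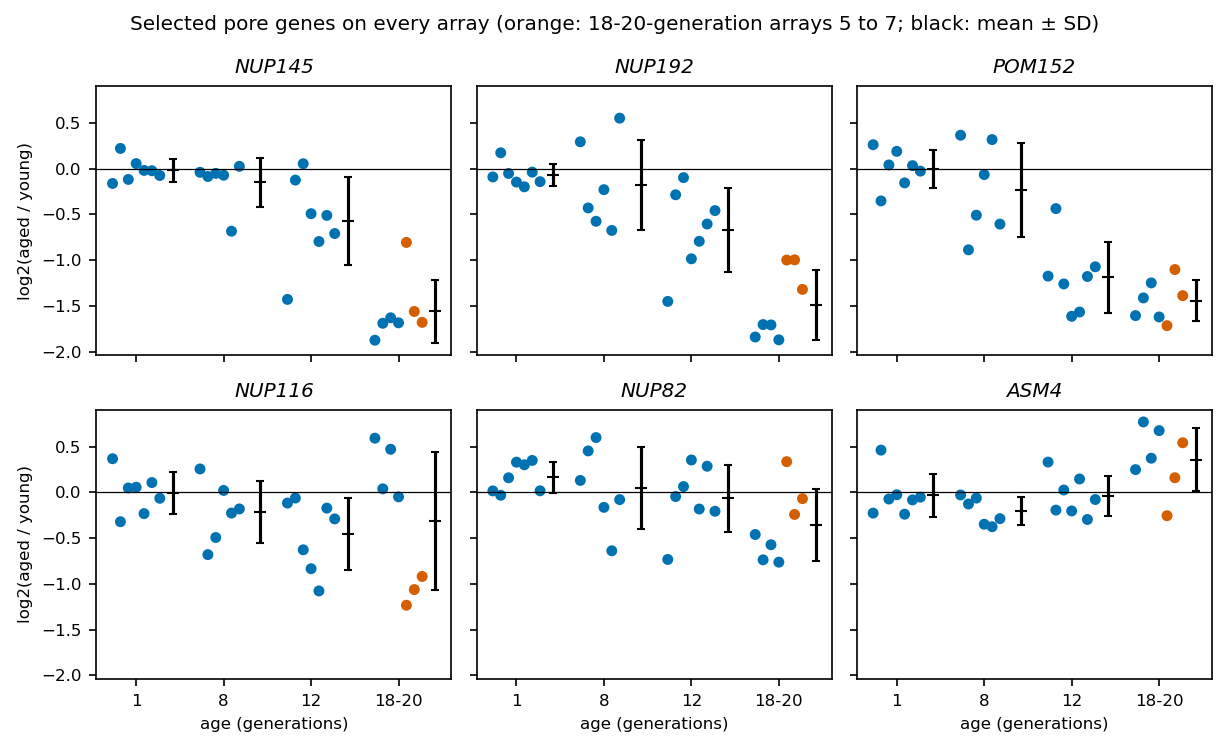
Log2 ratio of aged over young cells of 6 nuclear pore genes on every array, by age in generations, with the mean ± SD in black and arrays 5 to 7 of 18-20 generations in orange. NUP145, NUP192 and POM152 were below 0 on every array at 18-20 generations, while NUP116 lay between -1.23 and -0.92 on arrays 5 to 7 and between -0.05 and 0.59 on arrays 1 to 4.

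On the cytoplasmic side, where arriving messenger ribonucleoprotein is remodelled, 1 of 5 genes rose and 1 fell at 18-20 generations, and 2 fell at 12. Of all genes, 32.9% rose and 31.2% fell at 18-20 generations, and 21.5% fell at 12. NUP159, which docks the helicase Dbp5, was 0.36 ± 0.12 (adjusted p = 0.0112) at 18-20 generations and 0.06 ± 0.12 (adjusted p = 0.735) at 12. Its arrays at 18-20 generations ran from -0.10 to 1.01 with a median of 0.29, and without the highest, array 7, the value was 0.25 (adjusted p = 0.0685). The call of NUP159 was also lost with arrays scaled to an equal spread (0.197), against the 1-generation arrays (0.0834) and without arrays 5 to 7 (0.228). NUP82, which anchors NUP159, was -0.36 ± 0.14 (adjusted p = 0.025) at 18-20 generations. The call was lost without array 1, 2, 3 or 4, with adjusted p up to 0.103. It was also lost with marked spots kept (0.203), arrays scaled to an equal spread (0.335), the arrays of small spots as a block (0.318) and alike arrays averaged (0.495). Both genes were printed on 17 spots of each array. At 18-20 generations the median SD between spots of an array was 0.15 for NUP159 and 0.29 for NUP82, against SDs between arrays of 0.34 and 0.40.

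NUP42, an FG protein that helps GLE1 bind the pore, was -0.18 ± 0.12 (adjusted p = 0.176) at 18-20 generations and -0.37 ± 0.12 (adjusted p = 0.0122) at 12. Its call at 12 generations was lost with arrays scaled to an equal spread (adjusted p = 0.138) and against the 1-generation arrays (0.0809). It was also lost with arrays weighted by their agreement with the fit (0.0832) and with the arrays of small spots as a block (0.173). The block rests on array 7 of 18-20 generations alone and cannot decide the call at 12. GLE1, the activator of Dbp5, was 0.16 at 18-20 generations (95% interval -0.02 to 0.34). GLE2, an export factor bound by NUP116, was -0.32 ± 0.20 (adjusted p = 0.169) on 5 arrays at 18-20 generations and -0.58 ± 0.18 (adjusted p = 0.0104) on 6 arrays at 12. At 12 generations the call was lost without array 1, which stood at -1.10 (-0.47, adjusted p = 0.0525). It was also lost with marked spots kept (-0.39, adjusted p = 0.19), in the authors' deposited values (-0.56, adjusted p = 0.143) and against the 1-generation arrays (adjusted p = 0.163). At 18-20 generations GLE2 passed without array 5 (-0.56, adjusted p = 0.0124), and also with median centring (-0.54, adjusted p = 0.00999), with marked spots kept (-0.67, adjusted p = 0.0137) and in the authors' deposited values (-1.27, adjusted p = 0.00081).

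In the nuclear basket, 1 of 3 genes fell at 18-20 generations (31.2% of all genes) and none at 12 (21.5%). NUP2, a mobile FG protein that releases importin alpha from its cargo, lay between -1.20 and -0.26 at 18-20 generations, with a median of -0.45, and its fitted change was -0.55 ± 0.14 (adjusted p = 0.00089). All 7 arrays were below 0, and array 7 was the lowest. The call of NUP2 was lost with arrays scaled to an equal spread (adjusted p = 0.0765) and against the 1-generation arrays (0.0915). NUP60, which tethers NUP2 to the pore, was -0.08 at 18-20 generations (95% interval -0.35 to 0.20), and NUP1 was 0.09 (-0.13 to 0.31).

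Between the last 2 ages, 5 pore genes differed: NUP192, NIC96, NUP145 and NUP100 were lower at 18-20 than at 12 generations, and ASM4 was higher. Of all genes, 11.2% were lower and 8.53% higher. NUP192, NUP145 and NUP100 kept this call whichever single array was left out, but NUP192 and NUP100 lost it with alike arrays averaged (adjusted p = 0.131 and 0.118), and NUP100 with median centring (0.0504). Scaled to an equal spread, none of the 30 and 9 of all genes differed. Lower under every alternative that tested them were 9 pore genes at 18-20 generations (16.8% of all genes), POM152, NDC1, NUP170, NUP192, NUP120, NUP145, SEH1, NUP49 and NUP100, and 5 at 12 generations (8.53% of all genes), POM152, NDC1, NUP120, NUP145 and NUP49.

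At 8 generations the fitted values of the 30 genes were small, with a median of -0.14 and 23 below 0. Leaving out array 5 of that age moved the median to -0.050. The lowest adjusted p was that of ASM4, at -0.25 ± 0.11 (adjusted p = 0.303), and ASM4 was below 0 on 6 of 6 arrays, between -0.38 and -0.03. With the sign of array 1 turned, the median was -0.13 and 0 pore genes passed, where 9.07% of all genes did. With that of array 3 turned, it was -0.06 and 0 passed (0% of all genes). With arrays weighted by their agreement with the fit, 10 fell and 3 rose, where 17.7% of all genes fell and 17.8% rose. Arrays 5 and 6 of that age carried the extremes, and the dyes were inverted on array 6 and not on array 5. NUP84, NUP85, NUP133 and NUP57 stood between -1.43 and -1.39 on array 5, and NUP84 and NUP57 at 1.36 and 1.58 on array 6.

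Genes that work with the pore did not all move the same way. The counts of the lists below stand beside 31.2% of all genes that fell and 32.9% that rose at 18-20 generations. At 12 generations these shares of all genes were 21.5% and 23.3%. The 7 pore-associated proteins outside the list mostly rose: 6 rose and 1 fell at 18-20 generations, with a median of 1.12, and 5 rose at 12, with a median of 0.87. CDC31, the yeast centrin, which also serves the spindle pole body and the TREX-2 export complex, was 1.56 ± 0.13 (adjusted p = 4.23e-11) at 18-20 generations. POM33, a membrane protein involved in the distribution of pores, was 1.53 ± 0.20 (adjusted p = 1.53e-07). MLP1, a filament of the nuclear basket, was 1.12 ± 0.16 (adjusted p = 6.89e-07). MLP2, its paralogue, singled out after its value was seen, was the one that fell (-0.67 ± 0.15, adjusted p = 0.000216).

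Of 14 importins and exportins tested, 10 fell and 1 rose at 18-20 generations, with a median of -0.59, and 9 fell and 1 rose at 12, with a median of -0.50. KAP123, which imports ribosomal proteins, was -2.45 ± 0.22 (adjusted p = 3.92e-10) on 6 arrays at 18-20 generations. PSE1, an importin with overlapping cargo, was -1.31 ± 0.16 (adjusted p = 8.03e-08). MSN5, an exporter of phosphorylated proteins, was the one that rose, at 1.43 ± 0.17 (adjusted p = 3.03e-08).

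Of 9 genes of the Ran cycle, which gives transport its direction, 5 fell and 3 rose at 18-20 generations, and 3 fell and 3 rose at 12. GSP1, the main Ran GTPase, was -2.10 ± 0.22 (adjusted p = 5.21e-09) at 18-20 generations. RNA1, its GTPase activator, was -1.62 ± 0.20 (adjusted p = 4.95e-08), and PRP20, its nucleotide exchange factor, -1.35 ± 0.28 (adjusted p = 0.000307) on 5 arrays. GSP2, the paralogue of GSP1, singled out after its value was seen, was 0.88 ± 0.15 (adjusted p = 6.49e-06). The coding sequences of GSP1 and GSP2 are closely alike, and how far their spots share signal was not tested.

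Of 13 messenger RNA export genes tested, 4 fell and 4 rose at 18-20 generations, with a median of 0.12. Those with the largest change were the helicase DBP5 at -1.83 ± 0.18 (adjusted p = 1.14e-09), the helicase SUB2 at -1.46 ± 0.16 (adjusted p = 6.59e-09) and THP2 of the THO complex at -1.27 ± 0.15 (adjusted p = 2.03e-08). Of 12 genes of pore assembly and the nuclear envelope, 7 fell and 4 rose, with a median of -0.54. APQ12, an envelope protein needed for pore assembly, was -1.46 ± 0.19 (adjusted p = 1.13e-07), the reticulon RTN1 -1.35 ± 0.16 (adjusted p = 2.18e-08) and SNL1, a suppressor of pore defects, -1.30 ± 0.16 (adjusted p = 6.2e-08). Over all 55 genes outside the nucleoporin list, 27 fell and 18 rose at 18-20 generations, with a median of -0.33, and 21 fell and 15 rose at 12, with a median of -0.14.

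**Figure D5:**
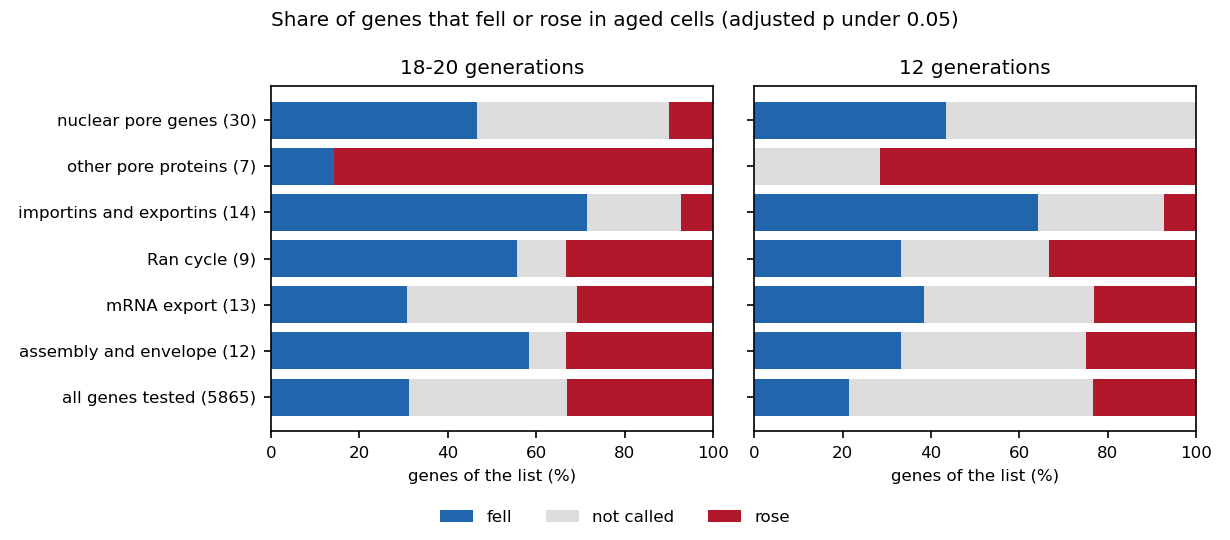
Share of genes that fell (blue) or rose (red) in aged cells at 18-20 generations (left) and 12 generations (right), for the nuclear pore genes, the lists of associated and transport genes and all genes tested, with the number tested in parentheses. Of the 30 pore genes 14 fell and 3 rose at 18-20 generations, and of the 7 other pore proteins 1 fell and 6 rose.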

How the data were processed

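Per the labels' protocols, RNA was amplified with a T7 promoter and coupled to dye, and each array was scanned in 2 colours. Per the file headers, the deposited scanner files hold spot and background intensity in both channels, the percent of a spot's pixels above background, spot diameters and marks; these columns gave what follows. The scanner software, the kind of probe and the authors' normalization are not given in the sources used here. The deposited value table holds log2 ratios, judged from its values; its normalization and centring are unknown (column medians -0.0625 to 0.0984). It served as an alternative, matched to spots by array position, and for 23 of 27 columns the best correlation was with the scanner file of the same array.

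Intensities were background-corrected (normexp, offset 50) and loess-normalized within arrays (span 0.3) with limma 3.58.1 in R 4.3.3. Marked spots were left out, ratios turned to aged over young by the labelled dyes, and spots of a gene averaged. Genes measured on at least 3 arrays of every age (5865) were fitted together, with a mean per age and a dye term, and tested two-sided with Benjamini-Hochberg adjustment at 0.05. Precision depends on how many arrays there are. The median SE of a pore gene was 0.14 at 18-20 generations. Paralogues were compared by exact two-sided sign-flip permutation tests within arrays, adjusted over 8. Alternatives covered background, normalization, scaling, spot filters, dye term, weights, blocks, turned arrays and left-out arrays.

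All 30 pore genes were named or counted; from each other list at most 3 genes past the threshold with the largest change at 18-20 generations were named, apart from those said to be chosen after their values were seen. The pore genes and all lists were chosen with earlier results of these data known. Array numbers shared between ages do not pair samples: same-numbered arrays correlated at a median of 0.01 (39 pairs, -0.28 to 0.23).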

Additional observations from a re-analysis of the deposited data

Results flagged for a closer look

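Single values stood far from the others of their age for 12 of 123 groups of values tested, where chance gives about 1 in 20. At 18-20 generations these were NUP145 on array 5 (-0.81, the highest), NUP100 on array 5 (-1.22, the lowest), NUP42 on array 2 (0.15, the highest) and NUP2 on array 7 (-1.20, the lowest). At 12 generations they were NIC96 on array 6 (2.74), NUP84 on array 3 (0.57) and GLE2 on array 1 (-1.10). At 8 generations NUP133 and NUP145 stood apart on array 5, at -1.39 and -0.68. At 1 generation array 2 held all of them, with NUP192 at 0.17, ASM4 at 0.46 and NUP84 at 0.48. Array 2 was the only array of that age with the dyes inverted, and the values compared here carried no dye term. The part of the dyes in these values was not tested. The calls of NUP145, NUP100 and NUP2 at 18-20 generations remained without the arrays named.

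The change differed between 18-20 and 12 generations by the test of the difference for NUP145 (-0.99), NUP192 (-0.82), NUP100 (-0.69), NIC96 (-1.08) and ASM4 (0.40).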

How the results depend on the processing

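Against 13 pore genes called at 12 generations, 17 at 18-20 and 5 between these ages, leaving out single arrays gave 11 to 15, 14 to 18 and 3 to 8. Over all genes, the same fits gave 2329 to 2799, 3572 to 3868 and 838 to 1609, against 2627, 3764 and 1156. Scaling arrays to an equal spread gave 9 at 18-20 generations (median -0.17) and 0 between ages (all genes: 2402 instead of 3764, and 9 instead of 1156). Array weights gave 13 at 8 generations and 10 between ages (all genes 2080 and 2175), and NSP1 turned to -0.20 at 18-20 generations (adjusted p = 0.0353), while it was 0.45 with the set block (0.00483) and 0.46 without arrays 1 to 4 of that age (0.0147). The set of arrays with small spots as a block gave 2 at 8 generations (all genes 337) and 8 at 12, and rests on array 7 of 18-20 generations alone. With 1-generation arrays as the reference, 7 passed at 12 (all genes 1601 instead of 2627) and 11 at 18-20 (all genes 1483 lower and 1551 higher). Between ages, median centring gave 2 and averaging alike arrays 1 (all genes 354). Chosen after seeing the data, leaving out arrays 5 to 7 of 18-20 generations gave 9 between ages (all genes 1764); leaving out arrays 1 to 4 gave a median of -0.27, NUP82 at 0.020, NUP60 at 0.43 and NUP116 at -0.64 between ages. At 8 generations, all genes called instead of 0 were 322 higher and 210 lower with array 1 turned, 392 without it, 26 without array 4, 9 with the replicate block, 4 scaled and 1 with print-tip loess; at 1 generation 157 with the set block, 67 scaled, 2 with weights and 1 with alike arrays averaged. The cause was not tested. The replicate block, whose numbers do not pair samples, gave 13 pore genes at 12 generations, 18 at 18-20 and 5 between ages; 2 of 27 arrays correlated best with their own number. The remaining alternatives moved no count of pore genes or of all genes by over 1.5 times, and no paralogue difference passed under any.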
